A study of Mus musculus with 24 samples.

Results

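The ileum of KO mice 8 weeks after the making of chimeras (KO late) was compared with the ileum of KO mice at 2 weeks (KO early), in sorted epithelial cells and over all genes. The columns labelled KO late stage and ileum gave 3 libraries from 3 mice, those labelled KO early stage and ileum gave 4 libraries from 4 other mice, and these 7 were taken from 24 libraries in all. The mice were C57BL/6, the age label of every group was 8 to 14 weeks, and the cells were sorted as positive for the Villin-tomato reporter and negative for CD45. The title of the series concerns gut macrophages that lack the IL-10 receptor alpha chain and produce IL-23, and an epithelial response driven by IL-22. The sample labels say KO without naming the gene, the donor or the recipient. WT irradiated mice (2, also 8 weeks after chimerism) and non-treated WT non-irradiated mice (3) gave the other 5 ileum libraries, which shared in the estimate of spread. No WT mice at 2 weeks were among them, so that effects of the KO and of the time since chimerism cannot be told apart. Of 24421 genes in the file, 19122 had at least 10 normalised reads in at least 2 of the 12 ileum libraries and were tested.

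The lining of the ileum renews itself from stem cells at the base of the crypts, whose daughters divide several times and then become absorptive enterocytes or secretory cells. Goblet cells secrete mucus, Paneth cells stay at the crypt base and release defensins and lysozyme, and enteroendocrine and tuft cells sense the gut contents. IL-22 acts on the epithelium through the receptor chain Il22ra1 and is known to induce the Reg3 lectins, Fut2, Saa genes and the Duox2 oxidase. IL-10 restrains macrophages, and loss of its receptor in them is known to cause gut inflammation in mice.

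The cells carried their labelled identity. Over the 7 libraries Epcam, an epithelial adhesion protein, lay between 1666 and 2024 reads per M (M, 1000000 reads), and the ileal bile acid binding protein Fabp6 lay between 1027 and 3256. The leukocyte gene Ptprc, which encodes the CD45 of the sort, was at 14.3 to 29.0 reads per M, Lyz2 at 0 to 1.20 and the T cell gene Cd3e at 0.964 to 2.93. The stromal gene Col1a1 was at 0.863 to 2.67, and the colonic gene Car1 at 3.87 to 18.1, while the chloride exchanger Slc26a3, which marks colon but not it alone, was at 156 to 299. Il10ra, the gene named by the title, had 4.0, 10 and 8.5 normalised reads in KO late ileum, against 24.4, 23.6, 31.2 and 21.9 in KO early ileum. All KO late values lay below all KO early values, and the 5 WT libraries had 1.6 to 12.9, so KO late stood at the WT level. The log2 fold change was -1.69 ± 0.53 (SE, n = 3 and 4 mice, limma, adjusted p = 0.102). In bone marrow chimeras the epithelium stems from the recipient, so that the level of Il10ra in these cells does not check the KO label.

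**Figure D1:**
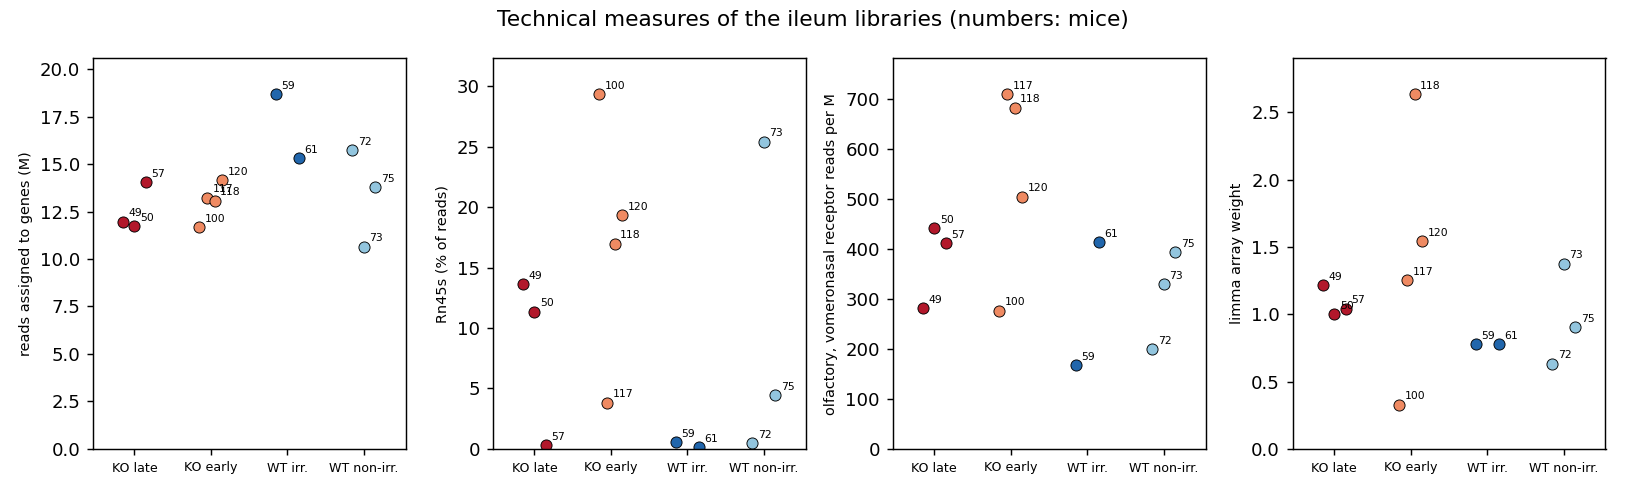
Technical measures of the 12 ileum libraries, 1 point per mouse with its number, for KO late, KO early, WT irradiated (WT irr.) and WT non-irradiated (WT non-irr.): reads assigned to genes in M, Rn45s as percent of reads, reads in olfactory and vomeronasal receptor genes per M, and the limma array weight. KO early mouse 100 has the highest Rn45s share (29.4%), the lowest array weight (0.328) and, of the KO early mice, the fewest receptor reads (276).

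The 7 KO libraries held 11.7 to 14.1 M recovered reads, and some of them stood apart. Rn45s, the ribosomal RNA precursor, took 13.6, 11.3 and 0.283% of reads in KO late ileum (mice 49, 50 and 57), against 29.4, 3.81, 17.0 and 19.3% in KO early ileum (mice 100, 117, 118 and 120). Levels per M were therefore taken over reads outside Rn45s. Olfactory and vomeronasal receptor genes, which gut epithelium is not known to use, drew 282, 442 and 412 reads per M in KO late ileum, against 276, 710, 683 and 504 in KO early ileum. Reads on these genes can serve as a gauge of background. KO early mouse 100 had the lowest count of them in its group, the highest Rn45s share and the lowest weight when limma weighted the libraries by their scatter (0.328, against 2.64 for KO early mouse 118). Each value per mouse below is in deposited normalised reads, in the mouse order just given. On that scale 1 read counted 1.33, 1.12 and 0.949 in KO late ileum, against 2.22, 0.814, 1.01 and 1.04 in KO early ileum. Values of KO early mouse 100 thus ran higher on it, relative to the other KO early mice, than in reads per M. Overlaps between single mice and fold changes can therefore differ between the 2 scales.

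No gene passed an adjusted p of 0.05 between KO late and KO early ileum (limma, 0.00% of 19122 genes). The smallest adjusted p was 0.0726, which 221 genes shared, and 1191 genes lay under 0.1, 822 of them higher and 369 lower in KO late. At an unadjusted p under 0.05 there were 2569 genes with higher values in KO late (13.4% of the genes tested) and 2128 with lower values (11.1%). The 3 KO late values lay above all 4 KO early values for 2685 genes (14.0%) and below them for 1776 (9.29%). edgeR on the recovered reads also called no gene, with 2576 higher and 2364 lower at an unadjusted p under 0.05. DESeq2 on the same reads called 1342 genes (775 higher and 567 lower), limma with array weights 4321 (2029 and 2292), and limma with the receptor reads as covariate 1316 (877 and 439). Whether single genes pass thus depended on the tool and on how the libraries were weighted. Genes are named below with their values, and "higher" or "lower" describes values, not calls.

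**Figure D2:**
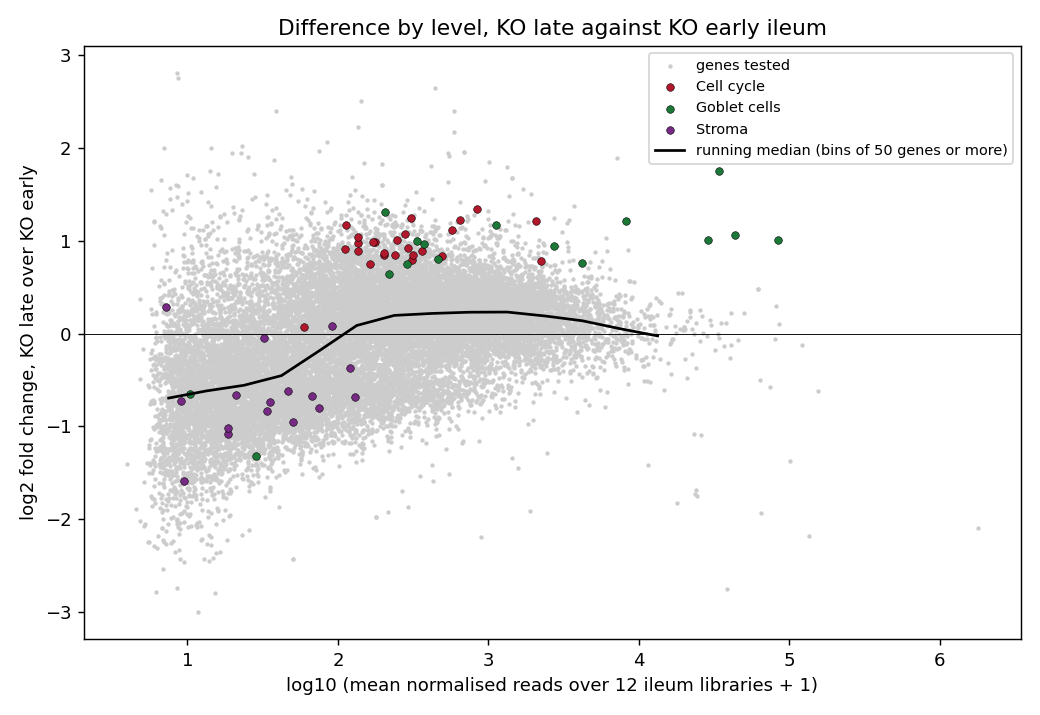
The log2 fold change of KO late over KO early ileum (vertical) against the log10 mean normalised reads over the 12 ileum libraries plus 1 (horizontal), 1 point per gene tested, with the cell cycle, goblet cell and stroma lists in colour. The running median lies below 0 for weakly expressed genes and above 0 for most genes with a mean over 100.

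The difference depended on level across all genes. The median log2 fold change was -0.02 over all 19122 genes, 0.19 over the 10712 genes averaging 100 or more normalised reads, and -0.50 over the 8410 genes below that. In the lowest class, genes with a mean under 20, the median was -0.63. Of 145 receptor genes tested, 12 were lower in KO late at an unadjusted p under 0.05 and 0 were higher, with a median of -0.39. Centring each library on the median of the 10712 well expressed genes moved the median of all genes to -0.15 and the counts to 1525 higher (7.98%) and 2582 lower (13.5%). Of the well expressed genes, 20.8% were higher and 5.20% lower at an unadjusted p under 0.05, and of those under 100, 4.05% were higher and 18.7% lower. Lists of weakly expressed genes are therefore read against a median of -0.50 and lists of well expressed genes against 0.19 and against these shares.

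Cell cycle genes stood higher in KO late ileum. Of 25 members tested, 22 had higher values at an unadjusted p under 0.05 and 0 had lower ones, against 13.4% higher among all genes and 20.8% among the well expressed ones, and 20 had no overlap between the groups (14.0% of all genes). The median log2 fold change was 0.92, and all 25 were positive. None of the 25 passed an adjusted p of 0.05 by limma. The summed level was 960.0 to 1199 reads per M in the KO late libraries, 256 to 791 in the KO early libraries and 697 to 1247 in the 5 WT libraries. KO early mouse 100 was the lowest of all, and the WT range covered the KO late range. A higher summed level can come from more dividing cells or from more RNA per cell, and these cannot be told apart in bulk samples, here or for the other lists.

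Pcna, the sliding clamp of DNA polymerase, had 362, 378 and 338 normalised reads in KO late ileum, against 204, 144, 180.4 and 158 in KO early ileum. Every KO late value was more than any KO early value. The log2 fold change was 1.07 ± 0.23 (SE, unadjusted p = 0.000446, limma adjusted p = 0.0726). Mcm6, a subunit of the helicase that opens DNA for replication, had 738, 1069 and 832 in KO late ileum, against 230.5, 358, 534 and 430.0 in KO early ileum (log2 fold change 1.23 ± 0.27). Top2a, the topoisomerase of dividing cells, had 2552, 2909 and 2989.6 in KO late ileum, against 629.6, 1081, 1664 and 1912 in KO early ileum (1.21 ± 0.34). Among the KO early mice, 100 was lowest and 120 highest for Top2a, a pattern that Cdk1 and Ccna2 shared. Cdk1, the kinase that drives entry into mitosis, had 366, 394 and 421 in KO late ileum, against 82, 148, 226 and 274 in KO early ileum (1.24 ± 0.37). Its partner Ccna2 had 989, 1152 and 1294 in KO late ileum, against 270.4, 351, 600.5 and 706 in KO early ileum (1.34 ± 0.35). The proliferation marker Mki67 averaged 2753 ± 206 in KO late ileum and 1620.1 ± 327 in KO early ileum (SD, n = 3 and 4). The 3 members that missed an unadjusted p of 0.05 were Mcm5 (0.79), the mitotic activator Cdc20 (0.75) and the G1 cyclin Ccne1 (0.07), of which Ccne1 averaged 61.7 ± 12.6 in KO late ileum and 60.2 ± 19 in KO early ileum.

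The count of 22 ranged from 17 to 23 when any 1 KO mouse was left out, and was 17 without KO early mouse 100. It was 17 after median centring, 21 with the receptor reads as covariate and 19 with the Rn45s share as covariate. With mouse 100 left out and the receptor reads as covariate together it was 9 of 25, with a median of 0.53. DESeq2 called 6 of the 25 as higher and limma with array weights 13.

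Many promoters of mitotic genes hold a CHR element (cell cycle genes homology region, letters TTTGAA) close to their start, together with CCAAT boxes, through which the DREAM complex and NF-Y are known to act. The promoters of 22 of the 25 genes were in the RefSeq table (build GRCm38.p6). TTTGAA or its reverse complement TTCAAA stood in the 250 bases before the start of 8 of these 22 genes (36.4%), against 16.0% of all 32851 promoter windows. CCAAT or its reverse complement ATTGG stood there in 19 of the 22 (86.4%), against 33.8% of all windows. A list gene was counted if any of its windows matched, while the shares of all windows count each window singly. The shares per gene and per window are therefore unlike measures, and no enrichment is read from them. The motifs do not overlap each other in the sequences shown, and a match describes letters only. Below are the last 120 bases before the start, 5′ to 3′ on the gene's strand, of the 4 genes of smallest p among the 6 that had an unadjusted p under 0.05 and a TTTGAA match in that stretch, with matches to either motif in capitals. They are shown so that the spacing of both motifs in genes that were higher together can be read.
Kif11 (chr19:37376262-37376381, plus strand): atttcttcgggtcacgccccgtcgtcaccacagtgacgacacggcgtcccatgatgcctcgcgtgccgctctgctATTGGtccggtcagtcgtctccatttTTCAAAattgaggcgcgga
Mki67 (chr7:135716380-135716499, minus strand): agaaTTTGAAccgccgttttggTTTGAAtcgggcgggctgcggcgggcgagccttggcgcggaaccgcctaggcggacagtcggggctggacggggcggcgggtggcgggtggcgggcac
Top2a (chr11:99024190-99024309, minus strand): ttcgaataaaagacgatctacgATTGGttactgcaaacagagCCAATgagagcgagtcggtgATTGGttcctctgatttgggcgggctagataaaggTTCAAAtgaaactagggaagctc
Cdk1 (chr10:69352913-69353032, minus strand): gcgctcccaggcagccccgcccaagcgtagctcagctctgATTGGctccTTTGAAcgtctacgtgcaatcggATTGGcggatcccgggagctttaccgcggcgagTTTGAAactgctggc
Kif11, Top2a and Cdk1 each held a TTTGAA or TTCAAA match that began within 23 bases of the start, with at least 1 CCAAT or ATTGG before it. Mki67 held a pair of TTTGAA matches, at 116 and 98 bases before the start, and no CCAAT box in this stretch. Kif11, the spindle motor, had 664, 817 and 839 normalised reads in KO late ileum, against 215, 352, 440.3 and 482 in KO early ileum.

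**Figure D3:**
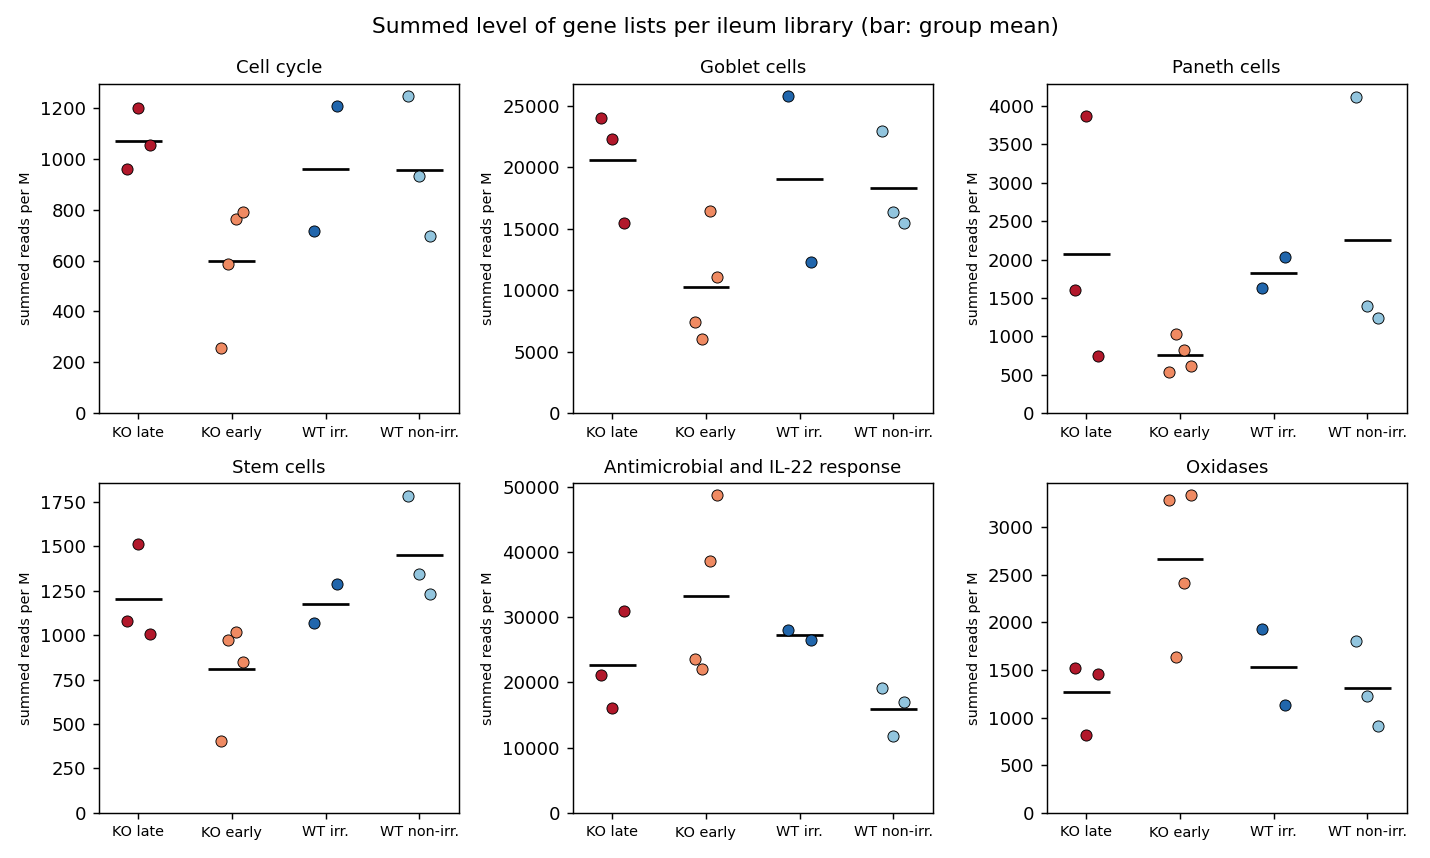
Summed reads per M (vertical, from 0) of 6 gene lists in each ileum library, for KO late, KO early, WT irradiated (WT irr.) and WT non-irradiated (WT non-irr.), 1 point per mouse with a bar at the group mean. Cell cycle sums lie at 960.0 to 1199 in KO late, all above the KO early range of 256 to 791, while the oxidase sums of KO late (819 to 1518) lie below the KO early range.

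Stem cell genes followed in part. Of 16 tested, 6 were higher in KO late at an unadjusted p under 0.05 (37.5%) and 0 were lower, with a median of 0.41. Of all genes 13.4% were higher, and of the well expressed ones 20.8%. The summed level was 1007 to 1513 reads per M in KO late ileum and 405 to 1018 in KO early ileum. Slc12a2, a chloride cotransporter enriched in crypt bases, had 2948, 4252 and 3372 normalised reads in KO late ileum, against 767, 1718, 2061 and 1752 in KO early ileum. The groups did not overlap (log2 fold change 1.24 ± 0.30, limma adjusted p = 0.0741). Olfm4, a secreted stem cell marker, had 3241, 4200.3 and 2194 in KO late ileum, against 834, 2037, 2119.9 and 1239 in KO early ileum (1.09 ± 0.35). KO late mouse 57 stood only just above KO early mouse 118 for Olfm4. Ascl2, the transcription factor that maintains stem cells, was low, with 14.7, 11.2 and 13.3 in KO late ileum, against 2.2, 1.6, 8.1 and 10.4 in KO early ileum. Lgr5, a receptor that marks these cells, averaged 414 ± 105 in KO late ileum and 355 ± 81 in KO early ileum, a log2 fold change of 0.22 ± 0.23 that was within the spread. With KO early mouse 100 left out and the receptor reads as covariate, 2 of the 16 had an unadjusted p under 0.05. Genes of the villus base and crypt gave 5 of 12 higher and 0 lower (median 0.38), and these 5 were Top2a, Ube2c, Olfm4, Hmgb2 and Stmn1, the first pair of which also stand in the cell cycle list and Olfm4 in the stem cell list. The summed level of the 12 genes did not go that way. It was 13270 to 27676 reads per M in KO late ileum, 19415 to 44079 in KO early ileum and 9711 to 24814 in WT ileum.

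Goblet cell genes were higher in KO late ileum. Of 16 tested, 12 were higher at an unadjusted p under 0.05 (75.0%), against 13.4% of all genes and 20.8% of the well expressed ones. None was lower, and 11 had no overlap (14.0% of all genes). The median log2 fold change was 0.98. Zg16, a lectin of the mucus that binds bacteria, had 51073, 57908 and 43128 normalised reads in KO late ileum, against 13857, 10523, 27876 and 12418 in KO early ileum. Its log2 fold change was 1.75 ± 0.34 (limma, adjusted p = 0.0726), and the WT libraries had 28526 to 46841. Muc2, the gel-forming mucin, had 67571, 57875 and 40779 in KO late ileum, against 28801, 14555, 37387 and 29362 in KO early ileum (1.06 ± 0.39). KO late mouse 57 was close to KO early mouse 118 for Muc2, and KO early mouse 117 was the lowest. Atoh1, the factor that commits cells to the secretory fate, had 274, 272 and 286 in KO late ileum, against 126, 61.9, 139 and 143 in KO early ileum (1.30 ± 0.29). The trefoil peptide Tff3 had 13813, 8110.5 and 8952 in KO late ileum, against 4773, 1918, 6681 and 5734 in KO early ileum (1.21 ± 0.45). Clca1, a mucus-processing protease, averaged 34926 ± 6795 in KO late ileum and 17559 ± 4141 in KO early ileum (1.01 ± 0.30). The 4 members without an unadjusted p under 0.05 were Fcgbp (1.00), the secretory factor Spdef (0.65), and the weakly expressed Retnlb (-1.31) and Best2 (-0.65), the last pair of which are mainly colonic. The summed level ranged over 15458 to 24056 reads per M in KO late ileum, 6007 to 16491 in KO early ileum and 12267 to 25826 in WT ileum, so KO late and KO early overlapped at their edge. The count was 9 without KO early mouse 117, with 1 member lower, and 5 of 16 with KO early mouse 100 left out and the receptor reads as covariate.

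Paneth cell genes had the largest median of the lists, 1.39, and the KO late mice differed widely for them. Of 18 tested, 10 were higher at an unadjusted p under 0.05 (55.6%) and 0 were lower, against 13.4% higher among all genes and 20.8% among the well expressed ones. Only 2 had no overlap, Defa21 and the related defensin Defa17. Of all genes 14.0% had none, so that count is not read as a result about the list. The summed level was 747 to 3864 reads per M in KO late ileum, 539.9 to 1037 in KO early ileum and 1244 to 4113 in WT ileum. Lyz1, the lysozyme of Paneth granules, had 7591, 17648 and 2962 normalised reads in KO late ileum, against 1055, 3763, 2749 and 1439 in KO early ileum (1.88 ± 0.60, limma adjusted p = 0.104). KO late mouse 50 was high and mouse 57 lay within the KO early range. The defensin Defa21 had 657, 1754 and 246 in KO late ileum, against 88.7, 226, 144 and 82.4 in KO early ileum (2.39 ± 0.56, adjusted p = 0.0726). Defa24, another defensin, had 1164, 3849 and 525 in KO late ileum, against 395, 791, 423 and 393 in KO early ileum. Mouse 50 was again the highest. Without mouse 50, 4 of the 18 had an unadjusted p under 0.05 and the median was 0.77, and without mouse 57 there were 14 and the median was 1.99. Defensin genes are near-identical copies, and reads can be shared among them, so the values of single defensins are uncertain.

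**Figure D4:**
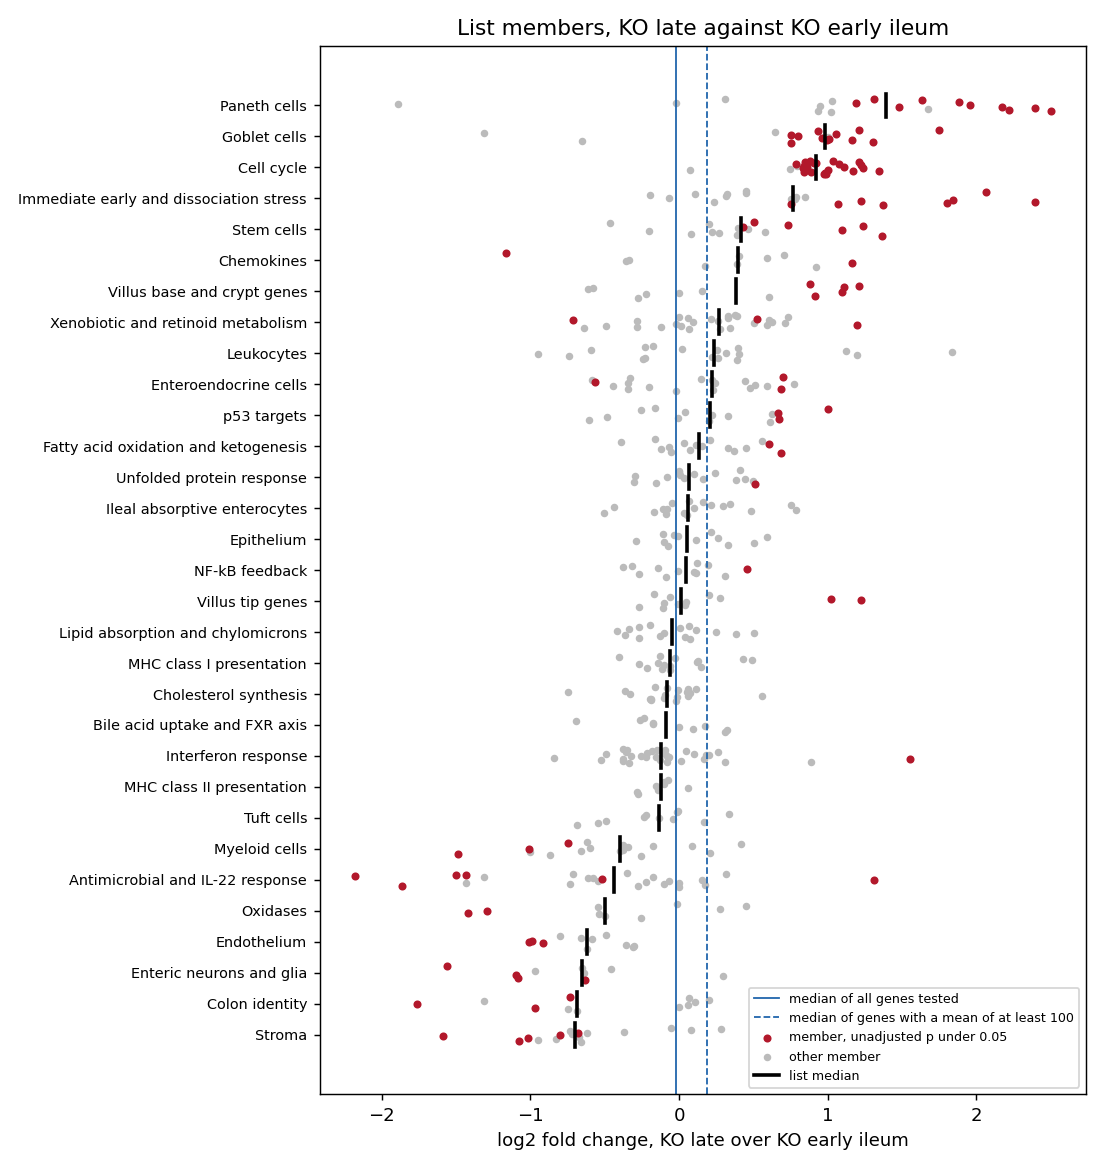
The log2 fold change of KO late over KO early ileum (horizontal) for each tested member of the 31 lists (vertical, sorted by median), with members at an unadjusted p under 0.05 in red, list medians as black bars, and the medians of all genes (-0.02, solid line) and of genes averaging 100 or more normalised reads (0.19, dashed). Paneth, goblet and cell cycle lists lie highest and the stroma list lowest.

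Immediate early genes, which are also induced by cell dissociation, were higher in KO late ileum as well. Of 20 tested, 8 were higher at an unadjusted p under 0.05 (40.0%) and 0 were lower, with a median of 0.77. Of all genes 13.4% were higher, and of the well expressed ones 20.8%. The summed level was 1503 to 2414 reads per M in KO late ileum, 1153 to 1263 in KO early ileum and 986 to 2669.6 in WT ileum. Nr4a1, an orphan nuclear receptor, had 140.2, 147 and 85.5 normalised reads in KO late ileum, against 17.7, 30.9, 39.3 and 29.2 in KO early ileum (2.06 ± 0.52, limma adjusted p = 0.0760). Atf3, a stress-induced transcription factor, had 7011, 6709 and 4208 in KO late ileum, against 2609, 2170.5, 2113 and 2164 in KO early ileum (1.37 ± 0.37). For both genes the groups did not overlap, and the WT libraries had 36.9 to 206 for Nr4a1 and 1615 to 5666 for Atf3. Fosb, an AP-1 subunit, had 2192, 1594 and 820.5 in KO late ileum, against 505, 403, 336 and 357 in KO early ileum. The count was 5 without KO early mouse 118 and 4 with KO early mouse 100 left out and the receptor reads as covariate. The part of sample handling in these genes was not tested.

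The leading genes were the 12 of smallest p in each direction among those without overlap and averaging 5 or more reads per M. The 12 higher ones were Pdcd4, Sytl2, Areg, Fam107b, Myb, Thbs1, Npm1, Sfpq, Mat2a, Rpl5, Kpna2 and Tra2b, all at an adjusted p of 0.0726. Areg, a growth factor that binds the EGF receptor, had 973, 1013 and 1067 normalised reads in KO late ileum, against 341, 213, 236 and 281 in KO early ileum. The log2 fold change was 1.95 ± 0.32, and KO late lay above all WT libraries (256 to 792). Thbs1, an extracellular matrix glycoprotein, had the largest log2 fold change of the 12, with 738, 1395 and 580.3 in KO late ileum, against 148, 169, 119.9 and 108 in KO early ileum (2.64 ± 0.47). Sytl2, a regulator of vesicle docking, had 2487, 3849.9 and 2583 in KO late ileum, against 816, 884, 1313 and 1169.9 in KO early ileum (1.51 ± 0.25). Each of these genes was clear of overlap by the rule that named it. Myb, a transcription factor of crypt progenitors, had 953, 981 and 1113 in KO late ileum, against 310.4, 428, 479.6 and 501 in KO early ileum (1.26 ± 0.22). Pdcd4, an inhibitor of translation, had the smallest p of all, with 1304, 1614 and 1173 in KO late ileum, against 450.0, 608, 665 and 469.6 in KO early ileum (1.32 ± 0.20, unadjusted p = 1.47e-05). Log2 fold changes were 1.41 for the nucleolar protein Npm1, 1.35 for the ribosomal protein Rpl5, 1.23 for Fam107b, 1.19 for the nuclear importin Kpna2 and 1.12 for the methionine adenosyltransferase Mat2a. They were 0.97 and 0.96 for the RNA-binding splicing proteins Tra2b and Sfpq.

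The lower leading genes included Setbp1, Paqr8, Mx1, Kirrel3, Syne3, Ulk4, Chd5, Cacna1i, Prkar1b, Dnah10 and Adcyap1r1, all at an adjusted p of 0.0726. Kirrel3, a cell adhesion molecule best known in neurons, had 987, 969 and 759 normalised reads in KO late ileum, against 2135, 2193, 3711 and 1532 in KO early ileum (-1.34 ± 0.27). Mx1, a gene induced by interferon, had 218, 166 and 171 in KO late ileum, against 324, 446, 407 and 356 in KO early ileum (-1.05 ± 0.21). Setbp1, a DNA-binding protein, had 602, 659.5 and 502 in KO late ileum, against 1035, 1521, 1518 and 1199 in KO early ileum (-1.15 ± 0.19). The rule that named these 3 genes required that their groups not overlap, so their separation is no further result. For Kirrel3 the KO late values were close to those of WT ileum (652 to 1092). Adcyap1r1, a neuropeptide receptor, averaged 31.8 ± 6.82 in KO late ileum and 86.3 ± 19.2 in KO early ileum, and the calcium channel gene Cacna1i averaged 78.4 ± 5.51 and 208 ± 30.8 in the same order. Adcyap1r1 lies in the range of level where the median of all genes was below 0.

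Some genes that IL-22 is known to induce were lower in KO late ileum, led by Fut2 and Saa1, while the lectins Reg3b and Reg3g overlapped. Of the 24 tested in the antimicrobial and IL-22 list, 5 were lower in KO late at an unadjusted p under 0.05 (20.8%) and 1 was higher. Of all genes 11.1% were lower, and of the well expressed ones 5.20%. The median of the list was -0.44. Their summed level was 16009 to 30945 reads per M in KO late ileum, 22072 to 48698 in KO early ileum and 11858 to 27999 in WT ileum. The receptor chain Il22ra1 had 3671, 2516 and 2806 normalised reads in KO late ileum, against 4305, 2881, 2907 and 2800.0 in KO early ileum, and its log2 fold change of -0.10 ± 0.22 turned positive without KO early mouse 100. Reg3b, a bactericidal lectin, had 133115, 80557 and 204815 in KO late ileum, against 210203, 121230.0, 214118 and 288262 in KO early ileum (-0.62 ± 0.43, limma adjusted p = 0.362). Its relative Reg3g had 63412, 37951 and 98508 in KO late ileum, against 93648, 47254, 107316 and 153672 in KO early ileum (-0.58 ± 0.44). Both overlapped, with KO late mouse 57 well inside the KO early range. The count of 5 lower members was 2 without KO late mouse 50 or KO early mouse 120, and 3 without KO early mouse 118.

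Fut2, the enzyme that fucosylates the epithelial surface, had 135, 97.1 and 158 normalised reads in KO late ileum, against 601, 152, 418 and 1243 in KO early ileum (-1.87 ± 0.59, adjusted p = 0.103). The acute phase gene Saa1 had 483, 113 and 320.0 in KO late ileum, against 618, 433, 3084 and 2361 in KO early ileum (-2.18 ± 0.71, limma adjusted p = 0.110). For both genes KO early mouse 117 lay inside the KO late range and the other 3 KO early mice above it. Reg3a (-0.52), Saa2 (-1.50) and Saa3 (-1.44) were the other lower ones and Pla2g2a (1.31), a phospholipase gene also known from Paneth cells, was the higher one. Saa2 and Saa3 averaged under 20 normalised reads in both groups. Lcn2, an iron-binding defence protein, was near 0, with 6.7, 2.2 and 0.90 in KO late ileum, against 0, 4.1, 11.1 and 19.8 in KO early ileum. Clca4b had 35428, 31224 and 34398 in KO late ileum, against 49922, 22360.4, 31702 and 36434 in KO early ileum, a log2 fold change of -0.00 ± 0.31 whose sign changed with the settings. Socs3, the feedback inhibitor of STAT3 signalling, had 965, 508 and 589.8 in KO late ileum, against 1270.2, 142, 442 and 989 in KO early ileum, and here too the sign changed with the settings.

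Of 9 oxidase genes, 2 were lower at an unadjusted p under 0.05 (22.2%) and 0 were higher (median -0.50). Of all genes 11.1% were lower, and of the well expressed ones 5.20%. The count rests on 2 genes and is not read as a result about the list. Duox2, which makes hydrogen peroxide at the cell surface, had 10593, 3899 and 6066 normalised reads in KO late ileum, against 37384, 10404, 10205 and 20243 in KO early ileum (-1.42 ± 0.51, limma adjusted p = 0.131). Its maturation factor Duoxa2 had 2079, 763 and 1541 in KO late ileum, against 9239.6, 1539, 1953 and 4248 in KO early ileum (-1.29 ± 0.58). In normalised reads KO early mouse 100 was the highest for both, and KO late mouse 49 overlapped the KO early range. Per M, the summed level of the 9 genes was 819 to 1518 in KO late ileum and 1633 to 3331 in KO early ileum, without overlap. In WT ileum that sum was 906 to 1926. Without KO late mouse 50 the count of lower oxidase genes was 0, and without KO late mouse 57, KO early mouse 100 or KO early mouse 120 it was 1. Nos2, the inducible nitric oxide synthase, averaged 7274 ± 3309 in KO late ileum and 10865 ± 4466 in KO early ileum, within the spread (-0.55 ± 0.42).

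Immune response lists gave few members at an unadjusted p under 0.05. Among all genes 13.4% were higher and 11.1% lower, and among the well expressed ones 20.8% and 5.20%. The shares of the lists in this paragraph lay below those of all genes. Their counts are not read as results about the lists. Of 34 interferon response genes, 1 was higher and 0 were lower (median -0.12). That gene was Ido1, an enzyme of tryptophan breakdown, with 3004, 3107 and 2799.7 normalised reads in KO late ileum, against 1108, 432, 1262 and 1736 in KO early ileum (1.55 ± 0.36, limma adjusted p = 0.0726). All KO late values lay above the KO early and the WT values (742 to 2550.5). Of 10 chemokines tested, Ccl6 was higher, with 981, 1313 and 1646 in KO late ileum, against 275, 505, 808 and 965 in KO early ileum, and Cxcl9 lower, with 18.7, 36.8 and 43.7 in KO late ileum, against 142, 27.7, 61.5 and 105 in KO early ileum. Ccl6 is also counted with the goblet cell genes. MHC class I presentation (15 genes, median -0.06) and MHC class II presentation (8 genes, median -0.12) had 0 members in either direction. NF-kB feedback genes had 1 of 12 higher, the regulator Nfkbiz (0.46 ± 0.20), which averaged 1866 ± 181 in KO late ileum and 1362 ± 178 in KO early ileum.

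Absorptive and metabolic genes differed by less than the spread between mice in most cases. None of the 18 ileal absorptive enterocyte genes (median 0.06), 12 epithelium genes (0.05), 10 bile acid genes (-0.09), 16 lipid absorption genes (-0.05), 19 cholesterol synthesis genes (-0.08) or 11 tuft cell genes (-0.14) had an unadjusted p under 0.05. Slc10a2, the ileal bile acid transporter, had 2352, 1541 and 4178 normalised reads in KO late ileum, against 5582, 3596, 2744 and 4668 in KO early ileum (-0.69 ± 0.34, limma adjusted p = 0.217). Of 16 fatty acid oxidation genes 2 were higher and 0 lower, among them Hadhb (0.61), of 28 xenobiotic and retinoid genes 2 were higher and 1 lower, and of 16 unfolded protein response genes 1 was higher, the factor Atf4 (0.51). Villus tip genes gave 2 of 12 higher, the transcriptional regulator Ifrd1 (1.02) and the immediate early gene Fos (1.22). The p53 targets gave 3 of 14 higher and 0 lower (median 0.21), with the smallest p for Trp53inp1 (1.00 ± 0.28). The villus tip share of 16.7% and the p53 share of 21.4% lay near the 20.8% of well expressed genes. These 2 counts are not read as results about the lists. Enteroendocrine genes gave 2 of 19 higher and 1 lower. Among all genes 13.4% were higher and 11.1% lower. The shares of the fatty acid oxidation, xenobiotic, unfolded protein response and enteroendocrine lists lay below these. Their counts are not read as results about the lists either. The serotonin-synthesis enzyme Tph1 had 198, 183 and 143 in KO late ileum, against 97.5, 153, 93.7 and 90.8 in KO early ileum. Pyy, a hormone of L cells, had 120.1, 65.8 and 136 in KO late ileum, against 290.4, 31.8, 65.5 and 90.8 in KO early ileum, and its sign changed with the settings.

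Markers of cells that the sort should have removed were low. Among all genes with a mean under 100, 18.7% were lower in KO late at an unadjusted p under 0.05 and 4.05% higher. Against that, 17.6% of the myeloid and 27.3% of the endothelial markers were lower. These counts are not read as results about the lists. Stroma gave 5 of 16 lower and 0 higher (median -0.70), with a summed level of 45.3 to 59 reads per M in KO late ileum and 44.8 to 100.5 in KO early ileum. The count of 5 was 1 without KO late mouse 57, 2 without KO early mouse 117 or 118 and 3 without KO late mouse 49. Endothelium gave 3 of 11 lower (-0.62), enteric neurons and glia 4 of 9 (-0.65), and myeloid cells 3 of 17 (-0.39), each with 0 higher. On leaving out 1 KO mouse these 3 counts ranged over 1 to 6, 2 to 5 and 2 to 5 in that order, with the highest without KO early mouse 100. The median of all genes with a mean under 100 was -0.50, and Col1a1 averaged 11.9 ± 1.69 normalised reads in KO late ileum and 26.1 ± 2.87 in KO early ileum. Leukocyte genes gave 0 of 18 in either direction, with summed levels of 63.8 to 232 reads per M in KO late ileum and 78.5 to 131 in KO early ileum. Colon identity genes mark epithelium, which the sort keeps, and they were not low. Their summed level was 453 to 695 reads per M in KO late ileum and 579 to 803 in KO early ileum. They gave 3 of 11 lower (27.3%) and 0 higher (-0.69). Of all genes 11.1% were lower, of the well expressed ones 5.20% and of those under 100 18.7%. Among the lower ones was the carbonic anhydrase Car4, with 1750.2, 925 and 1638 in KO late ileum, against 5121, 1331, 1816 and 4397 in KO early ileum. The part of cells that the sort should have removed, or of background reads, in the other lists was not tested.

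The colon of the same 7 mice allows a test of whether the difference between 8 and 2 weeks is the same in both tissues. The late minus early difference in ileum differed from that in colon for 491 of 19588 genes (limma interaction, adjusted p under 0.05, 2.51%). It was more positive in ileum for 408 genes (2.08%) and more negative for 83 (0.424%). With the mouse as block, since ileum and colon came from the same animals, the counts were 5605 genes (28.6%), 2528 more positive (12.9%) and 3077 more negative (15.7%). Median centring left 38 genes without the block (19 and 19) and 5143 with it (1230 and 3913), and adding the receptor reads to the block left 130 (92 and 38). Receptor reads in colon were at 753 to 1052 per M in KO late and 428 to 690 per M in KO early, while in ileum 3 of the 4 KO early mice lay above all KO late mice. Beyond that covariate, their part in the interaction was not tested. The count without the block was 0 on leaving out KO early mouse 117 or 120 or any of KO late mice 49, 50 and 57, 2 without KO early mouse 100 and 366 without KO early mouse 118.

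**Figure D5:**
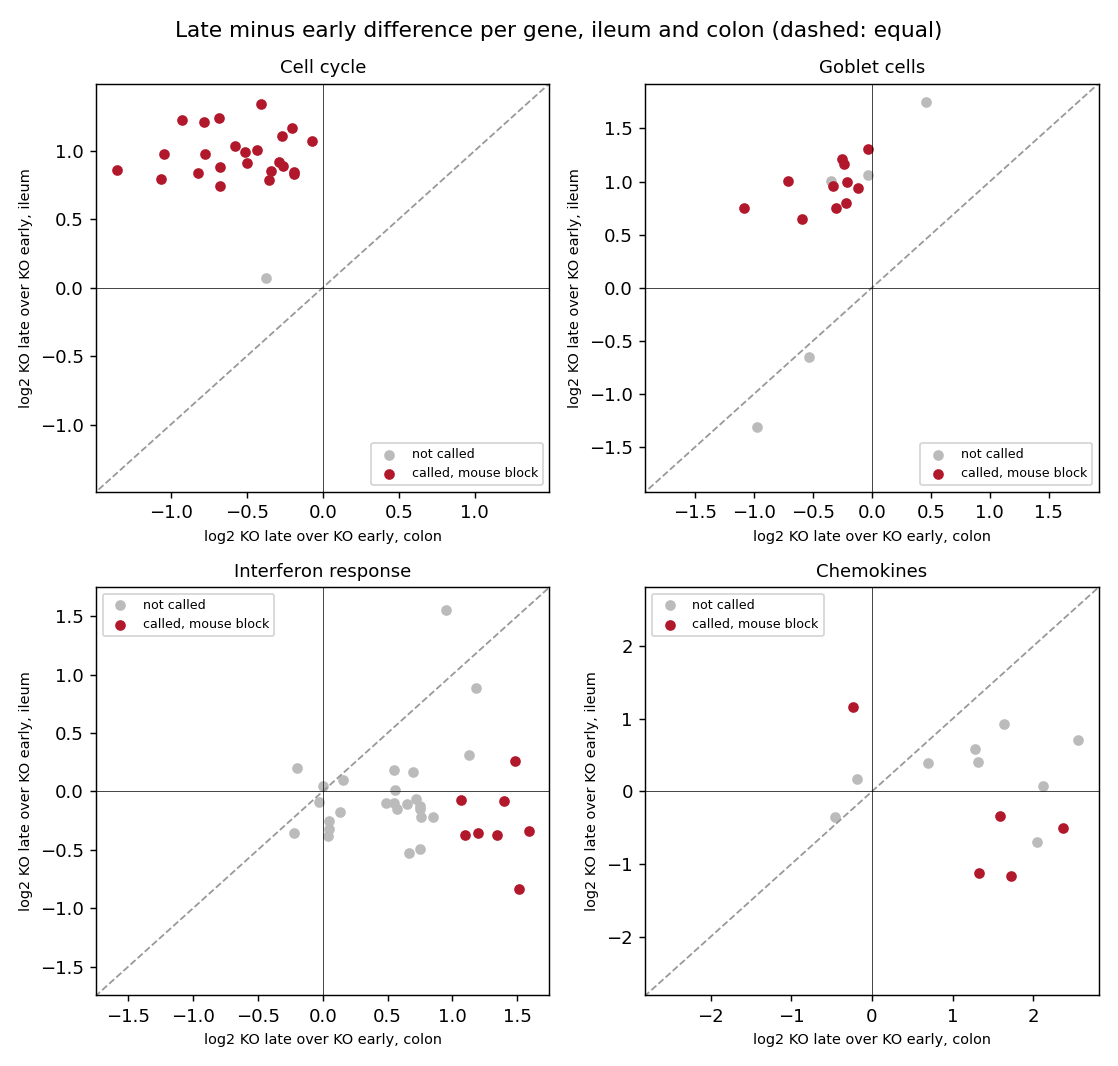
The log2 fold change of KO late over KO early in ileum (vertical) against that in colon (horizontal) for members of 4 lists, with genes whose difference between the tissues had an adjusted p under 0.05 with the mouse as block in red and a dashed line where both tissues are equal. All 25 cell cycle genes lie above 0 in ileum and below 0 in colon, with medians of 0.92 and -0.50.

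Cell cycle genes differed between the tissues in the fit with the block. Of 25, 6 were more positive in ileum without the block (0 after median centring) and 24 with it, 20 with the block and median centring, and 4 with the block and the receptor covariate. None was more negative under these settings. The median late minus early difference was 0.92 in ileum and -0.50 in colon, where 7 of the 25 were lower and 0 higher at an unadjusted p under 0.05 (8.64% and 3.73% of all genes). For Mcm6 the log2 fold change was 1.23 in ileum and -0.92 in colon, a difference of 2.15 ± 0.42 (SE, adjusted p = 0.0306 without and 0.00228 with the block in limma). Goblet cell genes had 0 of 16 called without the block and 11 more positive with it (7 with median centring, 0 with the receptor covariate). Paneth cell genes had 0 of 18 without and 9 with the block (4 with median centring, 0 with the receptor covariate). With the block alone, 12.9% of all genes were more positive in ileum.

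Some chemokines and interferon response genes were more negative in ileum than in colon. Of 14 chemokines tested over both tissues, 2 were more negative in ileum without the block and 4 with it, where 1 was more positive. Median centring without the block gave 0, block and median centring together 5 more negative, and block and receptor covariate 1. The median difference was -1.38, and with the block alone 15.7% of all genes were more negative in ileum. Cxcl9, a chemokine that draws T cells, had a log2 fold change of -1.17 in ileum and 1.72 in colon (difference -2.89 ± 0.73, limma adjusted p = 0.0415 without and 0.00762 with the block). Of 34 interferon response genes 1 was more negative without the block, Ifit2, 0 after median centring without the block, 8 with the block, 15 with block and median centring and 2 with block and receptor covariate, and none was more positive in these fits. Ifit2, an antiviral protein, had -0.84 in ileum and 1.52 in colon (difference -2.35 ± 0.56, limma adjusted p = 0.0370 without and 0.00447 with the block).

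The genes of smallest p in the interaction were Oat, Mthfd1 and Kcne3 on the positive side and Rbpms, Tnfrsf11b and Il1a on the negative side, all at an adjusted p of 0.0306 (limma). Oat, the ornithine aminotransferase of the gut, had 6994, 5613 and 7383 normalised reads in KO late ileum, against 4702, 3713, 3808 and 2428 in KO early ileum. In colon it averaged 474 ± 129 in KO late and 1007 ± 128 in KO early mice (SD, n = 3 and 4), the opposite direction. Kcne3, a potassium channel subunit that supports chloride secretion, had 634, 599 and 791 in KO late ileum, against 197, 304, 315 and 521 in KO early ileum, and in colon averaged 321 ± 123 in KO late and 865 ± 327 in KO early. Mthfd1, an enzyme of folate metabolism, had 709, 545 and 612 in KO late ileum, against 302, 331, 435 and 336 in KO early ileum, and 231 ± 4.98 and 373 ± 35 in the same order in colon. For Oat, Kcne3 and Mthfd1 alike, KO late was the higher group in ileum and the lower one in colon. Il1a, an inflammatory cytokine, was low in ileum, with 10.7, 13.4 and 12.3 in KO late, against 11.1, 18.7, 31.2 and 11.5 in KO early, while in colon it averaged 376 ± 265 in KO late and 40.6 ± 28.5 in KO early. Tnfrsf11b, the decoy receptor osteoprotegerin, averaged 67 ± 6.81 in KO late ileum and 73.1 ± 10.3 in KO early ileum, and 614 ± 199.8 and 129 ± 43.2 in the same order in colon. The ileum values of Il1a and Tnfrsf11b overlapped between KO late and KO early, while in colon KO late had the higher mean. Rbpms, an RNA-binding protein, averaged 156 ± 41.7 in KO late ileum and 289.6 ± 32.7 in KO early ileum, and 618 ± 55.3 and 315 ± 61.2 in colon.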

How the data were processed

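RNA-seq libraries of sorted ileal and colonic epithelium from 12 mice were made from 100 ng of total RNA with a stranded ribosome-depletion kit and read as single ends of 50 bp on 3 lanes, per the labels' protocols. The molecule label says polyA RNA, which differs from that kit. Per the submitters' processing notes, bcl2fastq, HISAT 0.1.6, HOMER and build mm9 were used, and strand use in counting was not given in the sources used here. Overlapping and antisense genes are therefore uncertain. The authors deposited 1 coverage signal per gene and library, reads divided by a size factor, from which whole reads were recovered by the value of 1 read. All low values came out whole (within 0.05) in every library but KO early ileum mouse 118, where 97.2% did, and the rest were rounded.

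The values were tested as log2(value + 1) with limma 3.58.1 (trend, R 4.3.3), two-sided, with Benjamini-Hochberg adjustment and calls under 0.05, so fold changes of low genes are understated. The 12 ileum libraries were fitted as 4 groups, and the tissue interaction used all 24 libraries as 8 groups. Ileum and colon of a mouse share its number in the labels. Their deviations from the group means correlated at -0.36 to 0.55 across genes over the 7 KO mice. KO late and KO early mice are different animals and are not paired. Alternatives used edgeR 4.0.16 and DESeq2 1.42.0 on the recovered reads, other pseudocounts, filters and scalings, array weights, covariates and left-out mice. Replicates are separate mice by number. No 2 of the 66 pairs of ileum libraries agreed within sampling noise (chi-square per gene at least 14.4), and log2 values within a group correlated at 0.934 to 0.981. Scripts were tested on simulated data.

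Leading genes were the 12 of smallest p in each direction without overlap and with at least 5 reads per M, leaving out predicted genes. Of these, 1 lower gene is not reported here. The member of smallest p of each of 31 lists, 12 preset genes and the 3 of smallest p per direction in the interaction were added. Further list members were chosen after their values were seen. The comparison, the members and the lists were chosen with earlier results of these data known. Promoter sequences are from RefSeq (GRCm38.p6). No coordinates were taken from the mm9 files.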

Additional observations from a re-analysis of the deposited data

Results flagged for a closer look

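The late minus early difference differed between ileum and colon by a test of the interaction for 491 genes, and the named ones are Oat (2.00 on the log2 scale), Mthfd1 (1.51), Kcne3 (2.51), Rbpms (-1.90), Tnfrsf11b (-2.36) and Il1a (-3.60), each ileum minus colon. Among named genes, 3 had 1 mouse far from the other KO early mice by Dixon's criterion. Alox5ap, which marks tuft cells, was at 203.9 normalised reads in KO early mouse 100, Il22ra1 at 4305 in KO early mouse 100, and Tph1 at 153 in KO early mouse 117. Chance gives such a value in about 1 in 20 groups, and 71 genes were looked at. These values are on the deposited scale, where 1 read counted 2.22 in KO early mouse 100 and 0.814 to 1.04 in the other KO early mice. Values of mouse 100 ran higher there than in reads per M, and the criterion was not applied to these genes per M.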

How the results depend on the processing

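The count of genes called between KO late and KO early ileum was 0 by limma and stayed at 0 with pseudocounts of 0.5, 5 and 20, without the filter and with a filter of 50, with median centring, TMM scaling, edgeR, no trend, the Rn45s share as covariate, KO early mouse 100 left out with the receptor covariate, and on leaving out any 1 KO mouse (0 to 0). It was 2 with only the 7 KO libraries, 1 without WT non-irradiated mouse 73, 1342 by DESeq2, 4321 with array weights and 1316 with the receptor covariate. The 2569 genes higher at an unadjusted p under 0.05 became 1525 with median centring and 3948 with array weights, and 1446 to 3378 on leaving out 1 KO mouse. The 2128 lower ones became 1173 with the filter of 50, 4433 with array weights and 1312 with the Rn45s covariate, and 1003 to 3232 on leaving out 1 KO mouse. The lowest counts came without KO late mouse 57 and the highest without KO early mouse 100. The WT, Rn45s and joint settings, and those of the interaction with median centring or the receptor covariate, were chosen after seeing the data. The cause of these changes was not tested.

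The interaction count of 491 became 5605 with the mouse as replicate block, 130 with the block and the receptor covariate, 38 with median centring, 5143 with the block and median centring, and 0 to 366 on leaving out 1 mouse. The 6 genes named from the interaction lost their call in 38 of 84 values under the alternatives and reversed in 0. Over 1910 values of the named genes in the ileum comparison, where none was called, 1753 kept their direction and side of the threshold, 138 passed it and 19 reversed. On leaving out 1 KO mouse, Ciita ranged from -0.50 to 0.060, positive without KO late mouse 50. Clca4b ranged from -0.20 to 0.19, positive without mice 100, 120 and 50, and was 0.11 with array weights and 0.070 with mouse 100 out and the receptor covariate. Il22ra1 ranged from -0.25 to 0.048, positive without mice 100 and 50, and was 0.031 with array weights. Pyy ranged from -0.23 (without mouse 117) to 0.82, and was -0.10 by edgeR, -0.16 by DESeq2, -0.42 with the receptor covariate and -0.030 with mouse 100 out as well. Socs3 ranged from -0.31 (without mouse 117) to 0.73, and was -0.037 by edgeR, -0.079 by DESeq2, and -0.34 with the receptor covariate, with or without mouse 100. Counting error weighs most on genes near 10 normalised reads, such as Il10ra and Lcn2.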

Other observations

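Several gene families outside the lists were higher in KO late ileum, and they were picked after their values were seen, so their counts are descriptions. Of all genes 13.4% were higher at an unadjusted p under 0.05, and of genes averaging 100 or more normalised reads 20.8%. Of 78 Rpl and Rps genes, which encode ribosomal proteins, 49 were higher at an unadjusted p under 0.05 and 0 lower, with a median log2 fold change of 0.89. With the mouse as block 63 were more positive in ileum than in colon, against 12.9% of all genes. That count was 21 without the block, 2 with median centring alone, 44 with block and median centring, and 4 with block and receptor covariate. The summed level of the Rpl and Rps genes was 2093 to 2599 reads per M in KO late ileum, 991 to 1776 in KO early ileum and 1516 to 2849.6 in WT ileum. Ribosomal protein genes have many processed pseudogenes, with which reads can be shared. Of 11 Srsf genes, which encode splicing factors, 9 were higher and 0 lower (median 0.74), with summed levels of 1002 to 1229.8 in KO late ileum and 524 to 763 in KO early ileum. Of 15 Snhg genes, hosts of small nucleolar RNAs, 8 were higher and 0 lower (0.79).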
